A study of Mus musculus with 2 samples.

Results

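The unfolded protein response and the folding machinery of the endoplasmic reticulum (ER) were examined as a set of 43 genes. The genes were listed by name and by role, with earlier results of these data known, and each was found on the arrays through probes whose RefSeq accession belongs to it. These probes numbered 64, and all 43 genes had at least 1 probe detected on both arrays, out of 13001 genes measured on both. The study compared whole pancreas of a WT group with that of an Nrdc-cKO group, in which Ptf1a-Cre recombined Nrdc flox/flox alleles. Both groups were male C57BL/6 mice aged 5 weeks. Each group had 1 array, and the labels do not say whether the RNA came from 1 mouse or from a pool, nor whether the WT mice carried Cre or a loxP-flanked allele. Ptf1a is active in pancreatic progenitors as well as in acinar cells, so the recombined cells need not be acinar only.

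Proteins that will be secreted fold in the lumen of the ER, where chaperones hold them, disulfide enzymes join their cysteines, and chains that fail to fold are sent back to the cytosol for degradation. When unfolded chains build up, the membrane sensors IRE1 (Ern1), ATF6 (Atf6) and PERK (Eif2ak3) start the unfolded protein response. IRE1 splices the Xbp1 message, ATF6 is cut to release a transcription factor, and both raise chaperone and degradation genes, while PERK slows translation and favours synthesis of the transcription factor ATF4. The acinar cell, which makes the digestive enzymes of the exocrine pancreas, carries one of the heaviest secretory loads of any cell and is rich in this machinery.

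RNA was labelled with Cy3 and hybridised to 1-colour Agilent arrays. Levels are given as log2 processed signal minus the 75th percentile of the same array, and differences as Nrdc-cKO minus WT on that log2 scale. The spots well above background were 46.3% of the non-control spots for WT and 60.3% for Nrdc-cKO. The error given with a difference (±) is an SD propagated from the error that the scanner software assigned to each spot, and it covers the spot only. There were no replicates, so no difference has an error across animals, no test was possible, and the number of arrays limits the precision. Nrdc, the targeted gene, had a level of 1.93 for WT and -1.28 for Nrdc-cKO, a difference of -3.21 ± 0.21 from 1 probe whose place relative to the deleted part is not given in the labels.

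Within the set, most ER folding and degradation genes stood lower on the Nrdc-cKO array, while 4 of the 5 PERK-branch genes did not. Further ATF4 and CHOP targets outside the set, given below, did not share this contrast, with a median of -0.74. Of the 43 genes, 22 (51.2%) were at least 2-fold lower, against 17.3% of all measured genes, and 2 (4.65%) were at least 2-fold higher, against 12.8%. At least 4-fold lower were 7, against 3% of all genes, and 0 were at least 4-fold higher, against 3.73%. The median difference was -1.09, beside -0.18 over all genes. Derl3, a membrane protein of ER-associated degradation, had the lowest value at -4.63 ± 0.20, and Fkbp14, a peptidyl-prolyl isomerase that acts on collagen, the highest at 1.53 ± 0.21. These directions depend on the scaling. With spike-in scaling, which sets the arrays by added control RNA, every gene stood 1.88 higher, the median of the 43 became 0.79 beside 1.70 over all genes, and 2 of the 43 were at least 2-fold lower (0.908% of all genes) and 19 higher (79.5% of all genes). The gap between the median of the set and that of all genes was -0.91 in both scalings. It could not change between them, because they differ only by a constant. This gap was -0.86 with loess and -0.72 with quantile scaling. With normexp background correction it was -0.76 under quantile scaling and -0.53 at the 75th percentile.

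**Figure D1:**
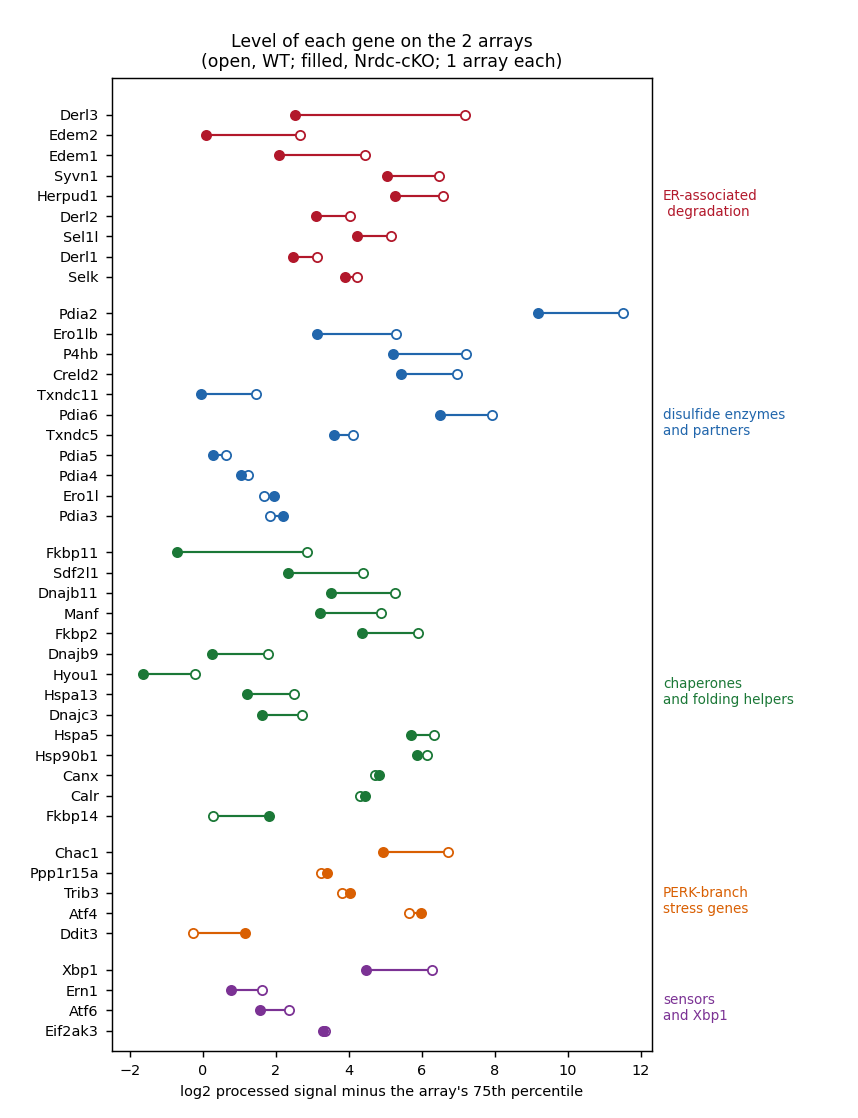
The level of each of the 43 genes on the WT array (open circles) and the Nrdc-cKO array (filled circles), as log2 processed signal minus the array's 75th percentile, grouped by role and with 1 array per group. The filled circle lies left of the open one for 34 genes and right of it for 9, and the longest line is that of Derl3, from 7.16 to 2.53. Only the 2 circles of one gene may be compared, because probes differ in brightness.

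Markers of several cell types moved beside these genes, and in a whole-tissue sample fewer cells of a type and less RNA per cell cannot be told apart. All 15 acinar markers with a named probe were detected on both arrays. In the main scaling all 15 were at least 2-fold lower, against 17.3% of all measured genes. They had a median of -1.74 there and a mean level of 10.98 for WT and 8.91 for Nrdc-cKO. Their median was 0.14 with spike-in scaling and lay between -1.74 and -0.14 in the other scalings. Of the 43 genes, 11 stood below this acinar median, namely Xbp1, Chac1, Sdf2l1, Dnajb11, Fkbp11, Pdia2, P4hb, Ero1lb, Edem1, Edem2 and Derl3. That count depended on the scaling: it was 10 or 11 in 6 of the 9 scalings, but 22 with loess, 30 with quantile scaling and 29 with normexp and quantile scaling, where the acinar median was -0.74, -0.14 and -0.18. Islet markers had a median of 3.93 with 12 of 13 at least 2-fold higher, macrophage markers 2.59 with 9 of 10, and fibroblast markers 2.13 with 7 of 7. The share of all genes higher by as much was 12.8%. The mean level on the WT and Nrdc-cKO arrays was 1.86 and 5.24 for islet markers, 0.74 and 3.0 for macrophage markers, and 3.42 and 5.33 for fibroblast markers. Markers of plasma cells, another cell type rich in ER, were mostly detected on the Nrdc-cKO array only. There 6 of 7 were seen without WT signal above background, with Igj at least 35.2-fold higher. The bound passed 2-fold for 4 of these 6. It was 1.34-fold for Prdm1, and Tnfrsf17 had no bound above 1. More spots were above background for Nrdc-cKO (60.3%) than for WT (46.3%). The share of all genes seen for Nrdc-cKO only was not counted. Adipocyte markers showed the widest differences of these lists, with 5 of 8 seen for Nrdc-cKO only, where the bound was at least 1360-fold higher for Cfd, and at least 518-fold, 278-fold and 167-fold higher for Car3, Cidec and Adipoq. Of the other 3 adipocyte markers, Plin4 was at 6.40, Fabp4 at 2.51 and Lep at -1.87. Of 8 duct markers, 3 were higher and 2 lower by 2-fold or more, against 12.8% and 17.3% of all genes. Their median was 0.59. The part of these cell types in the values of the 43 genes was not tested.

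Among the sensors and Xbp1, the transcription factor gene stood apart from the sensors. Xbp1 had a level of 6.27 for WT and 4.48 for Nrdc-cKO, a difference of -1.79 ± 0.12 (3.47-fold lower), and its 3 probes lay between -1.87 and -1.75. The files do not say where these probes lie relative to the segment that IRE1 removes, so the value is that of the message as probed, not of its splicing. The sensor genes differed by less than 2-fold. Ern1 went from 1.62 to 0.77 (-0.84 ± 0.21), Atf6 from 2.36 to 1.57 (-0.79 ± 0.20), and Eif2ak3 from 3.36 to 3.28 (-0.08 ± 0.20). Of all measured genes, 55.1% had a lower value than Eif2ak3. Which sensor lay nearest to zero depended on the scaling: in the authors' value table Atf6 was at -0.30, Ern1 at -0.35 and Eif2ak3 at 0.42, and with spike-in scaling they were at 1.09, 1.04 and 1.80.

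The PERK-branch stress genes did not share a direction in the main scaling. Ddit3, which encodes the transcription factor CHOP that PERK signalling induces under lasting stress, had a level of -0.26 for WT and 1.16 for Nrdc-cKO. Its difference of 1.42 ± 0.21 (2.68-fold higher) was exceeded by 8.14% of all genes. Chac1, a glutathione-degrading enzyme induced downstream of ATF4 and CHOP, went the other way, from 6.72 to 4.95 (-1.78 ± 0.20). The remaining members of the branch lay within 0.33 of zero in the main scaling. Atf4, the transcription factor itself, stood at 5.64 and 5.97 (0.33 ± 0.14), Trib3, a pseudokinase that restrains it, at 3.81 and 4.03 (0.22 ± 0.20), and Ppp1r15a, the phosphatase subunit that restores translation, at 3.25 and 3.39 (0.15 ± 0.20). Of the 5 genes, 1 (20%) stood at least 2-fold lower and 1 (20%) higher, against 17.3% and 12.8% of all genes. The median was 0.22. In the quantile, loess, value table and normexp scalings Atf4 was at 0.75 to 0.84 and Trib3 at 0.48 to 0.72, and with spike-in scaling Atf4 was at 2.21, Trib3 at 2.11, Ppp1r15a at 2.03 and Chac1 at 0.11, so that all 5 were then positive.

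**Figure D2:**
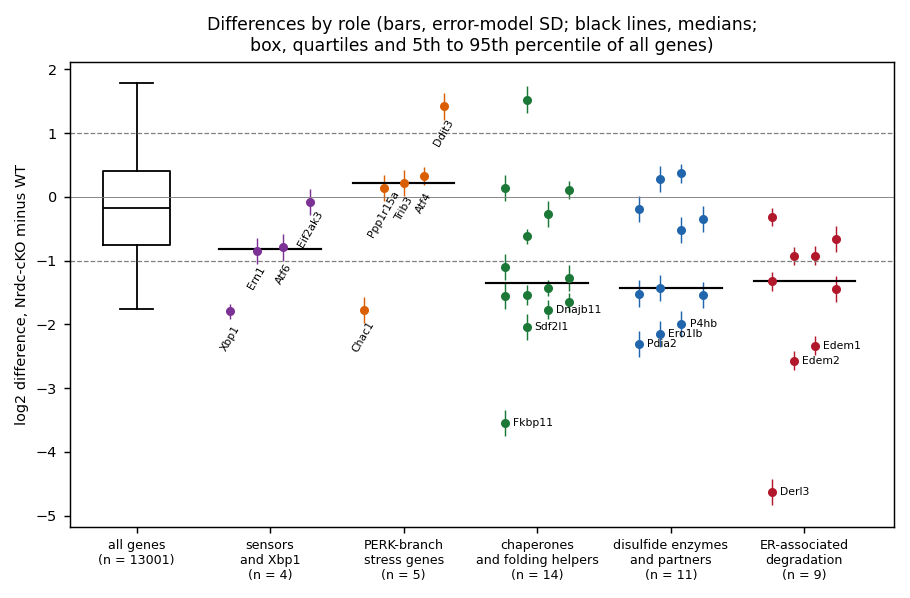
The log2 difference, Nrdc-cKO minus WT, of each gene by role (points, with the error-model SD as bars and medians as black lines), beside the distribution of all 13001 measured genes (box, quartiles; whiskers, 5th to 95th percentile). Dashed lines mark 2-fold. The medians are -0.82 for the sensors and Xbp1, 0.22 for the PERK branch, and between -1.43 and -1.33 for the other roles.

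Of 14 chaperones and folding helpers, 9 (64.3%) stood at least 2-fold lower, against 17.3% of all measured genes. Higher by as much was 1 (7.14%), against 12.8%, and the median was -1.35. Fkbp11, an ER peptidyl-prolyl isomerase of secretory tissues, went from 2.85 to -0.70, a difference of -3.55 ± 0.21 (11.7-fold lower), and only 0.423% of all genes had a lower value. Sdf2l1, which works with the Hsp70 cycle of the ER, went from 4.39 to 2.34 (-2.05 ± 0.20). Dnajb11, a J-domain partner of BiP, had a level of 5.27 for WT and 3.50 for Nrdc-cKO (-1.77 ± 0.14). Manf, a secreted ER stress protein, stood at 4.87 and 3.21 (-1.66 ± 0.14), and Fkbp2, another ER isomerase, at 5.90 and 4.36 (-1.55 ± 0.20). These 5 were lower on the Nrdc-cKO array with every scaling except spike-in scaling, where Fkbp11 (-1.66) and Sdf2l1 (-0.16) alone stayed below zero.

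The general chaperones of the ER differed by less than 2-fold in the main scaling. The directions of Hspa5 and Hsp90b1 depended on the scaling, while Calr and the mean of the Canx probes were positive in all 9. Hspa5, which encodes BiP, the Hsp70 that also holds the sensors inactive, had a level of 6.33 for WT and 5.71 for Nrdc-cKO. Its 3 probes agreed closely, from -0.64 to -0.60, and their mean was -0.62 ± 0.12 (1.54-fold lower), but it was -0.09 with loess and 1.26 with spike-in scaling. Hsp90b1 (GRP94), the Hsp90 of the ER, went from 6.13 to 5.87 (-0.26 ± 0.20). Its sign turned in 6 of 9 scalings, to 0.29 with quantile scaling, 0.26 with loess, 0.23 in the authors' value table, 0.30 and 0.29 with normexp, and 1.62 with spike-in scaling. Calreticulin, Calr, which binds glycoproteins in the lumen, went from 4.31 to 4.45 (0.14 ± 0.20). Its membrane-bound relative calnexin, Canx, averaged 0.11 ± 0.14, but its probes had opposite signs (-0.40 and 0.62), the widest range among the 16 genes with several probes, for which the median range was 0.17.

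The partners of BiP and its relative Hspa13 were lower than BiP itself. The nucleotide exchange factor Hyou1 went from -0.20 to -1.63 (-1.43 ± 0.13), the J-domain proteins Dnajb9 from 1.78 to 0.25 (-1.54 ± 0.15) and Dnajc3 from 2.71 to 1.62 (-1.09 ± 0.20), and the Hsp70-like Hspa13 from 2.49 to 1.21 (-1.28 ± 0.20). Each was at least 2-fold lower in the main scaling. Hyou1, Dnajb9 and Hspa13 were so in 6 of 9 scalings and Dnajc3 in 2 of 9, and all 4 were positive with spike-in scaling. Hyou1 was dim and dropped out when only bright probes were used. Fkbp14 was the exception among the helpers, with a level of 0.27 for WT and 1.80 for Nrdc-cKO (2.88-fold higher). That value rests on 1 of its 2 probes, because the other was not well above background on the WT array.

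Of 11 disulfide enzymes and partners, 6 (54.5%) stood at least 2-fold lower and 0 higher, against 17.3% and 12.8% of all genes. The median was -1.43. Pdia2, the protein disulfide isomerase known as PDIp for its expression in the pancreas, had a processed signal of 204605 for WT and 132399 for Nrdc-cKO. Its scaled difference was -2.31 ± 0.20 (4.97-fold lower), and it was -1.22 with quantile scaling and -1.41 with loess. Ero1lb, now Ero1b, the oxidase that recharges these enzymes in pancreas and islets, went from 5.28 to 3.13 (-2.15 ± 0.20). P4hb, the founding protein disulfide isomerase, went from 7.20 to 5.20 (-1.99 ± 0.20). Creld2 went from 6.96 to 5.42 (-1.54 ± 0.20), Pdia6 from 7.92 to 6.49 (-1.43 ± 0.20), and Txndc11 from 1.46 to -0.06 (-1.52 ± 0.21). The 2 Txndc11 probes had like values, but 1 was dim, with processed signals of 17.3 for WT and 20.1 for Nrdc-cKO. Txndc11 was at least 2-fold lower in 6 of 9 scalings, Creld2 in 5 and Pdia6 in 3.

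The other 5 disulfide genes were within 2-fold. Pdia3 (ERp57), the isomerase that works with calnexin and calreticulin on glycoproteins, went from 1.83 to 2.20 (0.37 ± 0.15), and its 2 probes differed by 0.01. Ero1l, now Ero1a, the widely expressed oxidase, went from 1.66 to 1.94 (0.28 ± 0.20). Both stood on the higher side, as Calr and the mean of the Canx probes did. Pdia4 was at -0.19, Pdia5 at -0.35 and Txndc5 at -0.52.

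All 9 genes of ER-associated degradation had a negative difference in the main scaling, with a median of -1.33. At least 2-fold lower were 5 (55.6%), against 17.3% of all genes. Derl3 had a processed signal of 10154 for WT and 1313 for Nrdc-cKO, which after scaling is a level of 7.16 against 2.53. It was 24.8-fold lower and ranked 12 from the lowest of 13001 genes. Edem2 and Edem1, mannosidase-like proteins that mark misfolded glycoproteins, went from 2.66 to 0.09 (-2.57 ± 0.14) and from 4.43 to 2.10 (-2.33 ± 0.14). The ubiquitin ligase of the pathway, Syvn1 (HRD1), went from 6.48 to 5.04 (-1.44 ± 0.20), and Herpud1, which assembles its complex, from 6.59 to 5.26 (-1.33 ± 0.14). Syvn1 and Herpud1 were each at least 2-fold lower in only 3 of 9 scalings.

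The remaining degradation genes lay within 2-fold on the lower side. Sel1l, the adaptor of HRD1, went from 5.15 to 4.23 (-0.92 ± 0.14). The derlins Derl2 and Derl1 were at -0.92 ± 0.14 and -0.65 ± 0.20, and the selenoprotein gene Selk, now Selenok, was at -0.31 ± 0.14. Selk was positive with loess (0.06), in the value table (0.18), with normexp and the 75th percentile (0.19) and with spike-in scaling (1.57), where Derl3, Edem1 and Edem2 alone of the 9 stayed negative. Derl3 was thus set apart from its own relatives as well as from the other genes of the pathway.

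Relatives that carry out the same reaction often differed from one another, and a gap between 2 genes of the same arrays does not move when all values shift by a constant. The main, spike-in and value table scalings, and those set on detected probes, differ only by such a shift. Only quantile, loess and normexp scaling could change a gap. The pairs were chosen after the values had been seen, so the gaps are a description. Ero1lb stood 2.42 ± 0.29 below Ero1l, a 5.37-fold inequality, and the gap ran from -2.42 to -2.09 over 9 scalings. Derl3 stood 3.98 ± 0.29 below Derl1 and 3.71 ± 0.25 below Derl2. Pdia2 stood 2.68 ± 0.25 below Pdia3, with a gap of -2.68 to -1.68 over the scalings, and P4hb stood 1.81 ± 0.29 below Pdia4. The largest gap, 5.07 ± 0.29, was between Fkbp11 and Fkbp14. Other relatives had like values. Edem1 and Edem2 differed by 0.23 ± 0.20, and Canx and Calr by 0.03 ± 0.25.

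**Figure D3:**
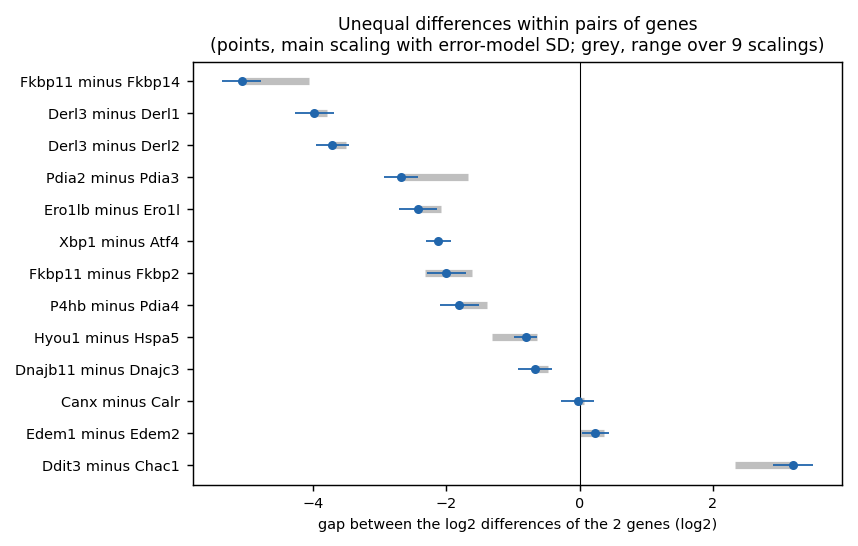
The gap between the log2 differences of 2 genes, first minus second, for 13 pairs of relatives or of genes in one branch (points, with the propagated error-model SD) and its range over 9 scalings (grey bars). A negative gap means that the first gene had the lower difference. The gap keeps its sign in all 9 scalings for every pair but Canx and Calr, and Derl3 minus Derl1 runs from -3.98 to -3.79. Only quantile, loess and normexp scaling could change a gap.

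The same holds between branches. Xbp1 stood 2.12 ± 0.19 below Atf4, with a gap of -2.16 to -2.09 over the 9 scalings, and Ddit3 stood 3.20 ± 0.30 above Chac1. The median of the 34 folding and degradation genes (-1.38) and that of the 5 PERK-branch genes had a gap of -1.60. It ran from -1.60 to -1.33 over the 9 scalings, and constant shifts could not change it. This contrast was also chosen after the values had been seen. It was not found in the further lists given below. In the main scaling their medians were -0.74 for ATF4 and CHOP targets, -0.54 for ER folding genes and -0.80 for degradation genes.

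The direction of single genes depended on the scaling for most of the set. In all 9 scalings 8 genes had a negative difference, namely Derl3, Fkbp11, Edem2, Edem1, Pdia2, Ero1lb, Sdf2l1 and P4hb. A positive difference in all 9 was found for Ddit3, Fkbp14, Atf4, Trib3, Ppp1r15a, Calr, Canx, Pdia3 and Ero1l. The other 26 changed sign in at least 1 scaling. Derl3 and Fkbp11 were at least 2-fold lower in all 9, and Ddit3 and Fkbp14 at least 2-fold higher in all 9. The members' counts in the other scalings stand beside shares of all genes that also moved. At least 2-fold lower were 18 with quantile scaling (15.2% of all genes), 16 with loess (10.7%), 16 in the authors' value table (8.26%), 14 with normexp background correction and the 75th percentile (8.81%), and 14 with normexp and quantile scaling (6.77%). At least 2-fold higher were 2 in each of these, against 13.5%, 15.8%, 22.2%, 9.58% and 8.83% of all genes in the same order. With no filter on dim probes the counts stayed at 22 lower (35% of all genes) and 2 higher (13.6%). Without spike-in scaling, 12 genes were at least 2-fold lower in each of the others, the 8 above with Xbp1, Chac1, Manf and Dnajb11.

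**Figure D4:**
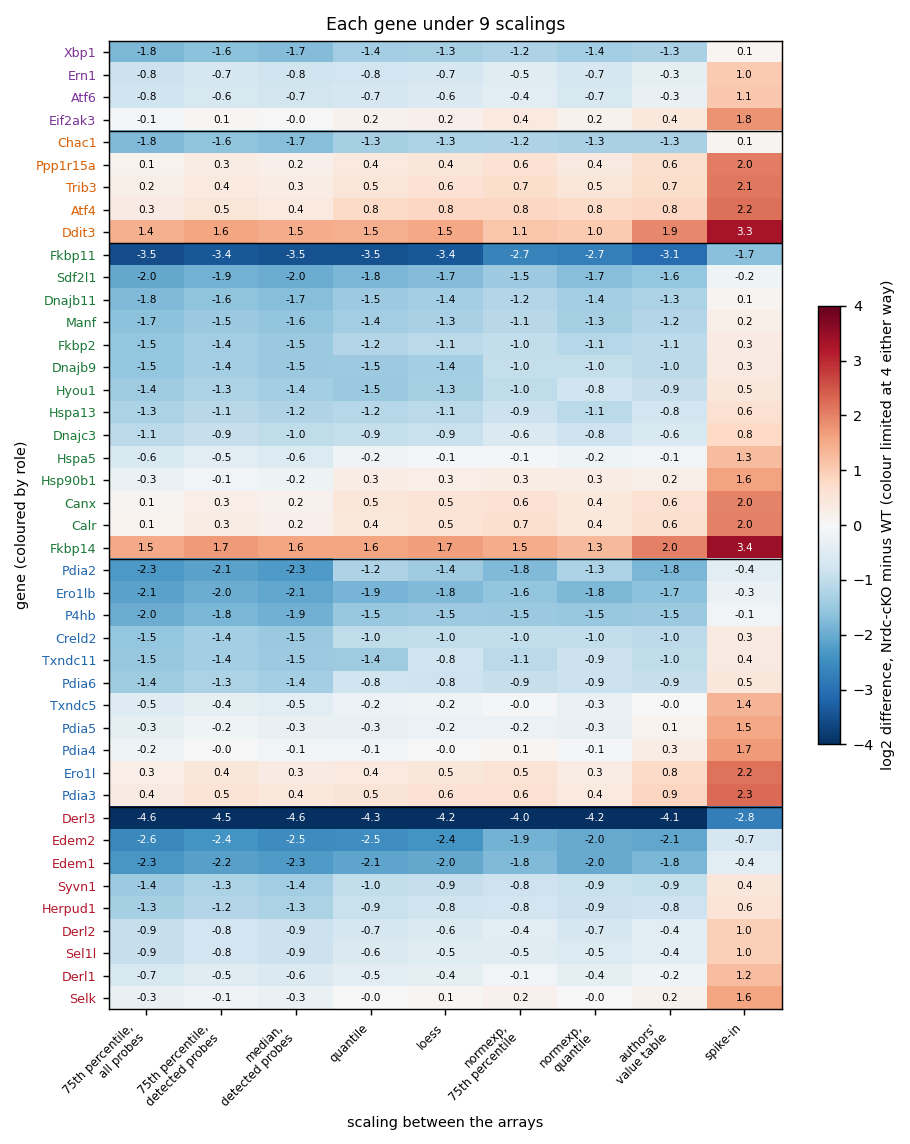
The log2 difference, Nrdc-cKO minus WT, of each gene (rows, coloured by role) under 9 ways of scaling the 2 arrays (columns), printed in each cell and shown as colour from blue (lower on the Nrdc-cKO array) to red (higher). Spike-in scaling turns Xbp1 to 0.09 and Hspa5 to 1.26, whereas Derl3 stays at -2.75 there and Fkbp11 at -1.66.

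ATF6 and XBP1 act on short promoter elements, and these were read in RefSeq promoters of GRCm38.p6, which hold 250 bases before and 50 after a gene's start. Of the 43 genes 38 had an entry, and Atf6, Hspa13, Hyou1, Manf and Derl1 had none. The ER stress response element (ERSE), which is CCAAT, 9 bases of any kind and CCACG, was searched on both strands and was found in 10 of the 38 (26.3%), against 0.137% of 27025 genes. ERSE-II, which is ATTGG, 1 base of any kind and CCACG, was found in 2 more, Dnajb11 and Herpud1 (5.26%, against 0.0444%). The core of the unfolded protein response element (TGACGTGG) was found in Txndc5 and Txndc11 (5.26%, against 0.714%). The C/EBP-ATF composite element TGATGNAAT had no match in the 38 and was in 1.08% of genes. The CCACG of both ER stress elements is also held, on the opposite strand, by the core TGACGTGG. A match is a description of the letters, and a missing match says only that these letters are not in the window.

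The ERSE matches are shown because genes that carry the same element differed so unequally. Each is written 5′ to 3′ in the orientation of the element, with the fixed bases in capitals, and the strand is that of the element.
Derl3, chr10:75893242-75893260, strand -: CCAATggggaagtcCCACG
Ero1lb, chr13:12565682-12565700, strand -: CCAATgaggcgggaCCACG
Creld2, chr15:88819520-88819538, strand -: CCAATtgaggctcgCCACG
Syvn1, chr19:6046532-6046550, strand +: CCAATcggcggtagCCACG
Pdia6, chr12:17266491-17266509, strand +: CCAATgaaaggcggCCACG
Dnajc3, chr14:118937827-118937845, strand +: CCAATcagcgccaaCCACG
Hspa5, chr2:34772025-34772043, strand +: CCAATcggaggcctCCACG
Hsp90b1, chr10:86705533-86705551, strand +: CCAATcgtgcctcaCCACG
Hsp90b1, chr10:86705638-86705656, strand -: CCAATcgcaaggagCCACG
Canx, chr11:50325800-50325818, strand -: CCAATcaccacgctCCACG
Calr, chr8:84847075-84847093, strand +: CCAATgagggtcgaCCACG

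From the top of these lines to the bottom the differences run from -4.63 (Derl3) through -2.15 (Ero1lb), -1.54 (Creld2), -1.44 (Syvn1), -1.43 (Pdia6), -1.09 (Dnajc3), -0.62 (Hspa5) and -0.26 (Hsp90b1) to 0.11 (Canx) and 0.14 (Calr). Of these 10 genes 6 were at least 2-fold lower, with a median of -1.26. Of the 28 with an entry but no ERSE, 13 stood at least 2-fold lower, 2 stood higher, and the median was -0.92. Over all measured genes, 17.3% stood lower and 12.8% higher by as much, with a median of -0.18. Fkbp11, Edem1, Edem2 and Pdia2, among the lowest of the set, had no ERSE in the window. The 250 bases before the start are given for Derl3 and for Hspa5, the gene with an ERSE that was lowest and the best known target of the element, with the fixed bases of the match in capitals and each read on the strand of its gene.
Derl3, chr10:75893148-75893397, strand +: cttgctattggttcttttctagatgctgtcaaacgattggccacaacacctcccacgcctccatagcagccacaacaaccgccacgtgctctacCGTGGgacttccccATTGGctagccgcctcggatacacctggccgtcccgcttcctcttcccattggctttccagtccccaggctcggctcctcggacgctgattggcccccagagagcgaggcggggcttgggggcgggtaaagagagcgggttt
Hspa5, chr2:34771840-34772089, strand +: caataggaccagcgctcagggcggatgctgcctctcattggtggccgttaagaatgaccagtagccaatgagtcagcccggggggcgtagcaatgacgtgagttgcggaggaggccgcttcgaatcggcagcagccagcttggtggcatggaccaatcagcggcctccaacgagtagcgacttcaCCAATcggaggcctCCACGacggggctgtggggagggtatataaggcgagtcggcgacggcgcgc

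Other genes of the same pathways, listed apart from the 43, gave a mixed picture. Of 32 measured genes in a further ER folding list, 13 (40.6%) stood at least 2-fold lower, 3 (9.38%) stood higher, and the median was -0.54. Among all measured genes, 17.3% stood lower and 12.8% higher by as much, so the share of higher genes in this list was not raised. Agr2, a disulfide isomerase of mucin-secreting cells, was at -3.72, the ER peroxidase Prdx4 at -3.18, Erp27 at -2.27 and the cyclophilin Ppib at -2.26. The higher genes were Cnpy4 (1.81) and the collagen-associated isomerases Fkbp7 (1.76) and Fkbp10 (1.54), beside Fkbp14 above. Fibroblast markers were higher by a median of 2.13, and their part in these values was not tested. Of 25 further degradation genes, 9 (36%) stood at least 2-fold lower and 0 stood higher, against 17.3% and 12.8% of all genes. Their median was -0.80. The ubiquitin-conjugating enzyme Ube2j1 was at -1.72, Vimp, now Selenos, at -1.70, the lectin Os9 at -1.66 and the glycanase Ngly1 at -1.57.

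ATF4 and CHOP targets beyond the 43 went both ways. Of 22 measured, 9 (40.9%) stood at least 2-fold lower, 3 (13.6%) stood higher, and the median was -0.74. The shares over all genes were 17.3% and 12.8%. The lowest 4 were Shmt2 (-2.66) and Mthfd2 (-1.70), mitochondrial enzymes of folate metabolism, the asparagine synthetase Asns (-2.42), and Phgdh (-1.89), which starts serine synthesis. The other 5 lower genes were Eif4ebp1 (-1.61), Fgf21 (-1.43), Stc2 (-1.43), Slc7a11 (-1.28) and Cth (-1.23). Slc7a11 was dim, with levels of -1.20 for WT and -2.49 for Nrdc-cKO. The higher ones were the stress-induced transcription factor Atf3 (2.35), the death receptor Tnfrsf10b (1.83) and Bbc3 (1.48), which encodes the pro-apoptotic protein PUMA. Of 18 further signalling genes, 2 (11.1%) stood at least 2-fold lower and 4 (22.2%) higher, against the same shares of all genes. Their median was -0.23, close to -0.18 over all genes. Ern2, the IRE1 of mucosal epithelium, was at -2.24 and Serp1, which stabilises membrane proteins in the ER, at -1.88. Ern2 was dim, with levels of -1.29 for WT and -3.53 for Nrdc-cKO from 1 probe. Casp12, an ER-associated caspase, was at 2.46, the stress kinase Map3k5 at 2.32, and the pro-apoptotic Bak1 and Bax at 1.56 and 1.12. The 1 further gene of that list, Creb3l4, was seen for Nrdc-cKO only and was at least 5.37-fold higher. With spike-in scaling the medians of these 4 lists were 1.35, 1.09, 1.14 and 1.66, in the order given.

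**Figure D5:**
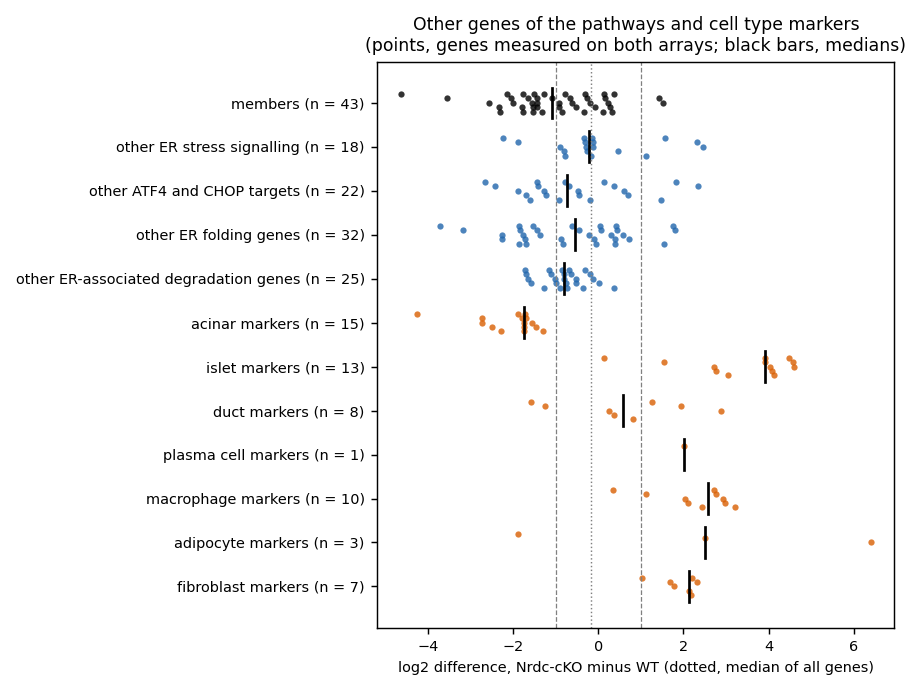
The log2 differences, Nrdc-cKO minus WT, of the 43 genes (black), of further genes of the same pathways (blue) and of cell type markers (orange), for genes measured on both arrays (points) with the list median (black bars). Dashed lines mark 2-fold and the dotted line the median of all genes, -0.18. The acinar markers lie between -4.25 and -1.30, and the islet markers between 0.14 and 4.59.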

How the data were processed

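The deposited scanner files gave a processed intensity per spot on a linear scale, corrected for background and spatial trend by Agilent Feature Extraction (12.0.3.1 per the file headers, 11.5.1.1 per the submitters' processing notes), with flags for detection, saturation and outliers (deposited as 0 or 1, another kind of value). No normalization between the arrays had been applied to them. The authors' deposited value table holds the same intensities times a constant, 4.37 on the WT array against 1.92 on the other, with no centring (medians 42.5 and 66.0). What set the constants is unknown here. Both arrays were on 1 slide and in 1 scan, per the file headers.

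Of 62976 spots per array, 59305 were not controls. Outlier spots were left out (80 on WT, 74 on Nrdc-cKO), repeat spots of a probe were averaged on the log2 scale, and each array's 75th percentile over all 56604 probes was subtracted. Detection of a probe needed a share of 0.5 or more of its spots flagged well above background. Probes detected on the WT and the Nrdc-cKO array alike were averaged per gene, with 2-fold as threshold. Accessions were matched without versions to RefSeq genes of GRCm38.p6 (32993 probes named), and older symbols through unique synonyms. A gene detected on 1 array only was given a bound against the other array. The level used there was the lowest detected level or the probe's own level, whichever was higher. The SD among repeat spots had a median of 0.03 (291 probes). Steps ran in Python 3.11.15 and limma 3.58.1, and were tested on simulated data.

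The 43 genes, their roles, the further lists and the marker lists were chosen with earlier results of these data known. The text names every gene of the 43, Nrdc, up to 4 genes past 2-fold at each end of a further list, and counts for marker lists. The other ATF4 and CHOP targets past 2-fold and single markers were named after their values were seen. C-terminal ER retention signals were planned and are not analysed here.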

Additional observations from a re-analysis of the deposited data

How the results depend on the processing

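No paired analysis was possible because WT and Nrdc-cKO were hybridised once apiece, and for the same reason no replicate could be left out. Of the 43 genes, those at least 2-fold lower numbered 22 as reported, 2 with spike-in scaling, 14 under each normexp setting, and 7 at a 4-fold threshold, which 3% of all genes passed. The 2 higher genes became 19 with spike-in scaling, 1 with bright probes only and 0 at 4-fold, against 3.73% of all genes. Ddit3, Hyou1 and Pdia5 were too dim to be measured with bright probes only. The median of -1.09 was 0.79 with spike-in scaling, -0.81 with quantile scaling, -0.79 with loess, -0.60 in the value table, -0.59 under normexp at the 75th percentile, and -0.81 under normexp with quantiles. With spike-in scaling the medians turned to 0.53 for chaperones, 0.45 for disulfide enzymes, 0.56 for degradation genes and 1.07 for the sensors and Xbp1 (-0.82 as reported, -0.32 in the value table). The PERK-branch median of 0.22 was 2.11 with spike-in scaling and 0.48 to 0.72 in the quantile, loess, value table and normexp scalings. Single genes lower by at least 2-fold also turned there, to 0.091 for Xbp1, 0.11 for Chac1, 0.61 for Hspa13, 0.45 for Hyou1, 0.23 for Manf, 0.35 for Dnajb9, 0.12 for Dnajb11, 0.79 for Dnajc3, 0.34 for Fkbp2, 0.45 for Pdia6, 0.35 for Creld2, 0.37 for Txndc11, 0.44 for Syvn1 and 0.56 for Herpud1. This follows from the added 1.88. The cause of the other changes was not tested. Leaving out saturated spots changed nothing because there were 0.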

Other observations

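Promoters outside the set also carried the ER stress elements. Of 27 further genes with an ERSE, 8 were measured on both arrays, and their median was -0.27, beside -0.18 over all genes. By 2-fold or more, 2 of them were lower and 1 higher, where 17.3% and 12.8% of all genes were. Acacb, an acetyl-CoA carboxylase of fatty acid metabolism, was lowest at -1.90, and Spats2l was highest at 1.48. The element of Creld2 is shared with Alg12, a mannosyltransferase of glycan assembly that starts on the opposite strand: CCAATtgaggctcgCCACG at chr15:88819520-88819538. Creld2 had a difference of -1.54 and Alg12 of 0.05. Calr shares its element in the same way with 1700122E12Rik, and their differences were 0.14 and -0.22. Of 10 further genes with ERSE-II, 6 were measured and 1 was at least 2-fold lower, Krtcap2, a subunit of the oligosaccharyltransferase, at -1.49. Single genes are named here after their values were seen.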
